A study of Mus musculus with 6 samples.

Results

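GDNF-RET signalling is the main growth signal of the branching ureteric bud, and 8 of its genes were read in E17 mouse kidneys with Mta2 deleted by Six2Cre. The 8 genes (Gdnf, Ret, Gfra1, Wnt11, Etv4, Etv5, Spry1 and Spry2) were chosen by symbol as the ligand, the receptors and the downstream genes. All 8 were found among the 23219 symbols of the deposited table, and all 8 passed the filter on low values that 13977 symbols passed. The mutant group comprised 3 kidneys of genotype Six2Cre Mta2flx/flx (label numbers 6, 8 and 9), and the control group 3 kidneys of genotype Mta2flx/flx (label numbers 5, 7 and 11), all taken at embryonic day 17. Both groups carried floxed Mta2 alleles and only mutant kidneys carried Cre, so the transgene and the loss of Mta2 cannot be told apart. Six2Cre is active in nephron progenitors of the cap mesenchyme, and the ureteric bud, stroma and vessels descend from other cells. Nothing in the labels ties the kidneys to separate embryos or litters, so p-values measure only how far these samples spread, which may be technical variation.

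GDNF is secreted by the cap mesenchyme and binds GFRA1 on the tips of the ureteric bud, where the complex activates the receptor tyrosine kinase RET. RET signalling through the ERK and PI3 kinase cascades raises the ETS transcription factors Etv4 and Etv5 and the secreted factor Wnt11, and WNT11 from the tips in turn sustains Gdnf in the cap. Sprouty proteins are induced by the same cascades and restrain them, and loss of Spry1 in mice gives extra ureteric buds. The ligand is therefore made by the lineage in which Cre acts, while Ret and Wnt11 are transcripts of the bud. Whether other cells added to the Gdnf read in whole kidneys was not tested.

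The windows around annotated start sites are shown for Gdnf and Wnt11, the members with the largest fold changes, in RefSeq sequence of build GRCm38.p6, which is mm10. Each runs from 250 bases before to 50 bases after a start site on the plus strand. The table of windows matched 6 of the 8 members, with 9 windows. Capitals mark matches to TATAAA on the strand of the gene, or to the ETS-type motif AGGAAG, which reads CTTCCT on the opposite strand.
Gdnf upstream start, chr15:7809798-7810097: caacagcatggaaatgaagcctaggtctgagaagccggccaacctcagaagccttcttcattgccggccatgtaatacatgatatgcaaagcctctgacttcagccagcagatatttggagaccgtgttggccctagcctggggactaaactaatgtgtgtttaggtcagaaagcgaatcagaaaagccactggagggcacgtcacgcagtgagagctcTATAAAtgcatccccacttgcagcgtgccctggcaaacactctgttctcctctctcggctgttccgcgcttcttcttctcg
Gdnf downstream start, chr15:7813477-7813776: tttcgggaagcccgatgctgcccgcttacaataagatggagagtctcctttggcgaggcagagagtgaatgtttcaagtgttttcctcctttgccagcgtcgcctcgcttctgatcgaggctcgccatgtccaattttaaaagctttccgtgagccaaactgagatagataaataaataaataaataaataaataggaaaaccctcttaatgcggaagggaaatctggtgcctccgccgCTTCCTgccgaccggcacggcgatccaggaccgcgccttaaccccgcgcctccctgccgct
Wnt11 upstream start, chr7:98834862-98835161: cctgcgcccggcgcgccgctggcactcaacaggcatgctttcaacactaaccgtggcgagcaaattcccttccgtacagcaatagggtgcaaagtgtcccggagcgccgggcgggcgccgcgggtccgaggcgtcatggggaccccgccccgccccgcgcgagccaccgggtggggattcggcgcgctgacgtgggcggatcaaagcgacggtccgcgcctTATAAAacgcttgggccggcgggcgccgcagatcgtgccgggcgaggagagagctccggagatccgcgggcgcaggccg
The TATAAA matches began at -31 from the upstream start of Gdnf and at -29 from the upstream start of Wnt11, and the other 7 windows held no TATAAA on the strand of the gene. Over 32851 windows of the same length, 8.32% held it on that strand. AGGAAG occurred on either strand in 3 member windows, in the downstream windows of Gdnf, Wnt11 and Etv5, against 35.4% of all windows. The motif TCANGTTTC, of the type bound by Six2, was in none of the 9 windows, and 1.08% of all windows held it on either strand. No matches overlapped each other. These are matches of letters and carry no measurement of binding.

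None of the 8 genes passed the test across all genes, but the means of Gdnf, of its co-receptor gene Gfra1 and of Wnt11 were 1.45 to 1.64 times as high in mutant as in control kidneys, with wide errors. The mean was 131% of control for Ret, 127% for Etv5, 96.4% for Spry1, 91.5% for Spry2 and 78.0% for Etv4. Levels are given in BPM, the summed base coverage of a gene in a library scaled to a library total of 1000000. In limma, 0 of 8 members passed an adjusted p of 0.05, as did 0 of 13977 genes (0% called). At an unadjusted p below 0.05 stood 3 of the 8, Gdnf, Gfra1 and Wnt11, all higher in mutant kidneys, against 5.6% of all genes in either direction and 2.9% on the higher side. With any 1 library left out 1 or 2 of the 8 stood there, and 1 did, Gdnf, without the filter on low values or without the mean-variance trend of limma. Limma called 1 gene without that trend and 4 with sample weights, and none of these was a member. Of the 8 log2 fold changes 5 lay above 0, as did 52.6% of all genes, and 3 below, with a median of 0.38 against 0.02 over all genes tested. One gene, Gdnf, had no overlap between the groups (1 of 8, or 12.5%), a share near the 11.2% of all genes without overlap; 6.1% of all genes had none and were higher. In whole kidneys, fewer cells of a type and less RNA per cell cannot be told apart.

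**Figure D1:**
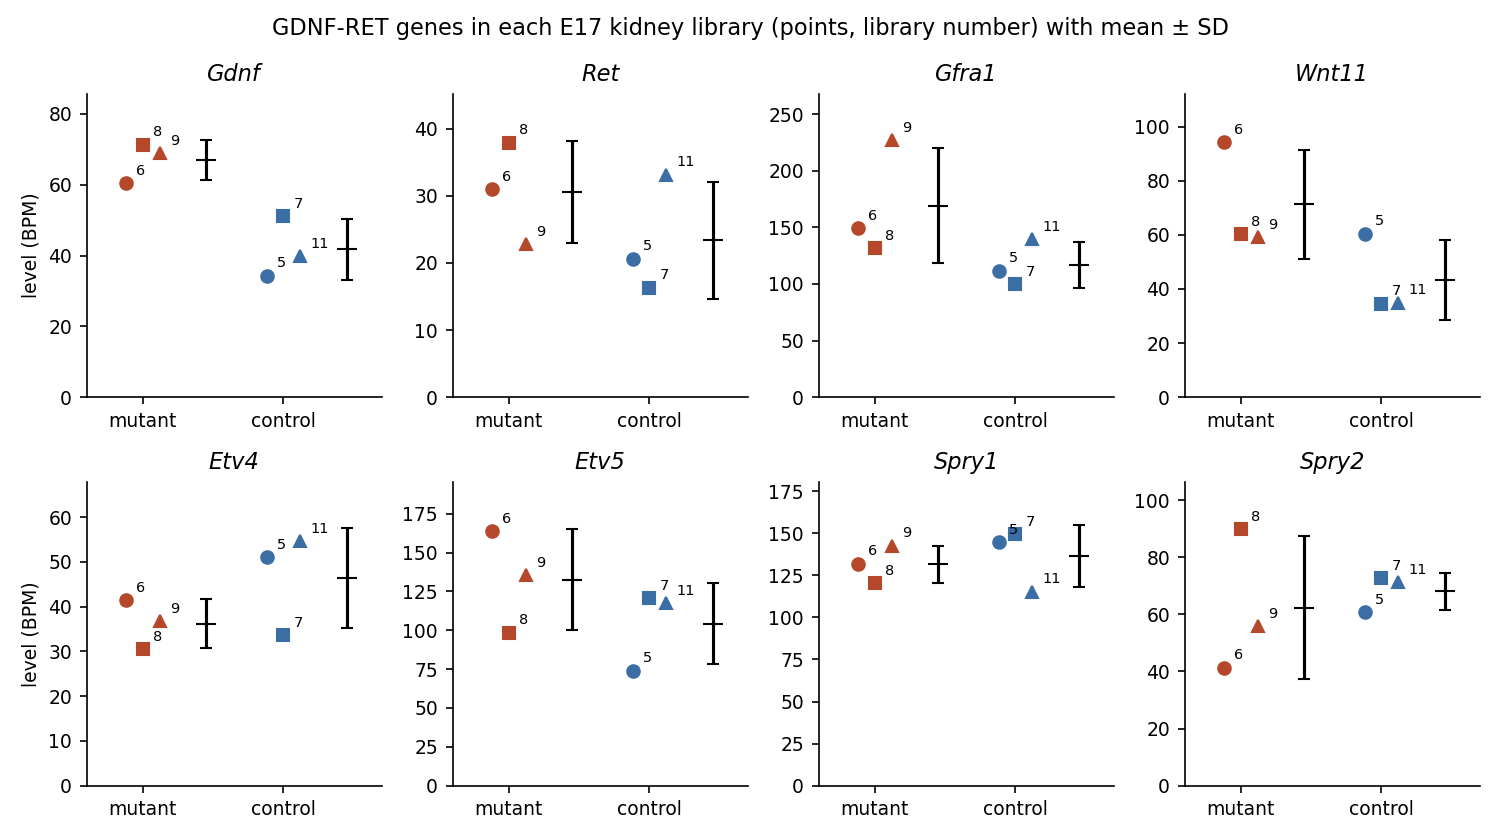
Level in BPM (vertical axes, from 0) of each of the 8 genes in the 3 mutant and 3 control libraries, with library numbers beside the points and bars for mean ± SD. Gdnf is the gene whose 3 mutant points, 60.5 to 71.3 BPM, all lie above the control points, 34.3 to 51.2 BPM.

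The checks of the libraries bear on several of these genes. Libraries held 794 to 1235 megabases of summed coverage, and the number of reads is unknown. Mta2 itself averaged 158 ± 26.6 BPM in mutant and 209 ± 11.0 BPM in control kidneys (SD, n = 3 each), and every mutant value lay below every control value (exact two-sided permutation p = 0.1, the smallest that 3 against 3 allow; limma adjusted p = 0.887). Mutant 6 lay apart on the first principal component, at -70.3 against 4.38 to 26.2 elsewhere, and control 11 had 2.30% of its bases on Lars2 against 0.0739% to 0.482% elsewhere. The 7 skeletal muscle markers summed to 296 BPM in mutant 9 and to at most 11.3 BPM in the other libraries. Ureteric trunk and collecting duct markers, a list of 11 genes from Wnt7b to Calb1, summed to 797 to 922 BPM in mutant and 731 to 862 BPM in control kidneys. All 11 were detected, 7 with log2 fold changes above 0 and 4 below, with a median of 0.06 and 0 called. All 8 cap mesenchyme markers were detected. The cap markers summed to 401 to 449 BPM in mutant and 400.5 to 448 BPM in control kidneys.

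Gdnf, the ligand made by the cap mesenchyme, lies on chromosome 15 from 7810846 to 7837575 (plus strand, GENCODE M21, mm10). Its level was 60.5, 71.3 and 69.0 BPM in mutants 6, 8 and 9, against 34.3, 51.2 and 39.8 BPM in controls 5, 7 and 11. The groups did not overlap, and the lowest mutant value exceeded the highest control value. Before scaling the gene had 65632, 66927 and 68602 covered bases in mutants 6, 8 and 9, against 27245, 63238 and 49110 in controls 5, 7 and 11. The mean was 66.9 ± 5.67 BPM in mutant and 41.8 ± 8.61 BPM in control kidneys (SD, n = 3 each), a ratio of 1.60. This gave a log2 fold change of 0.68 (SE 0.29, 95% interval 0.10 to 1.26), with a limma adjusted p of 0.854 and an unadjusted p of 0.0223, rank 356 of 13977. The exact two-sided permutation p was 0.1, the smallest possible. The authors' deposited table gives the same ratio, 1.60, with an unadjusted p of 0.0134. Gdnf kept a log2 fold change of 0.55 (without control 5) to 0.84 (without control 7) with each library left out in turn. Its groups could not come to overlap when a library was removed, so their separation in those fits adds nothing. Its unadjusted limma p was 0.0609 without mutant 9, 0.0685 without mutant 8 and 0.0864 without control 5.

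The markers of the cap, a source of Gdnf, had fold changes on both sides of 0. Six2, the progenitor transcription factor whose regulatory sequence gives the Cre line its name, stood at 22.0, 26.9 and 48.3 BPM in mutants 6, 8 and 9, against 19.8, 8.93 and 17.6 BPM in controls 5, 7 and 11. Eya1, a phosphatase and transcriptional partner of Six2 that Gdnf expression needs, stood at 74.4, 76.9 and 109.8 BPM in mutants 6, 8 and 9, against 51.7, 46.3 and 39.0 BPM in controls 5, 7 and 11. Both were higher in every mutant kidney. Cited1, which marks the least committed progenitors, had a log2 fold change of -1.48, and Meox1, a homeobox gene of the cap, one of -1.24, both with lower values in every mutant kidney. For these 4 cap markers the limma adjusted p ran from 0.336 (Cited1) to 0.854 (Six2). Of the 8 cap markers, 2 were higher and 2 lower at an unadjusted p below 0.05, and 0 passed an adjusted p of 0.05. The mean log2 level of the 8 was 4.82 ± 0.08 in mutant and 4.92 ± 0.13 in control kidneys (SD, n = 3 each).

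Set against that mean within each library, Gdnf stood 1.19, 1.26 and 1.32 log2 units above it in mutants 6, 8 and 9, and 0.36, 0.75 and 0.31 above it in controls 5, 7 and 11. The difference between group means was 0.78, close to the 0.68 of Gdnf alone. Set against Six2 alone the groups overlapped, at 1.42, 1.38 and 0.51 in mutants 6, 8 and 9 and 0.76, 2.39 and 1.13 in controls 5, 7 and 11. Gdnf was thus higher relative to the averaged cap markers and not relative to Six2. Only mutant kidneys carried the Six2Cre transgene, and whether it added to the Six2 values was not tested. Of the 8 averaged markers 4 had log2 fold changes above 0, among them Six2 (1.01) and Eya1 (0.90). The other 4 lay below 0, among them Cited1 (-1.48) and Meox1 (-1.24), so the difference depends on which markers are averaged. These comparisons were chosen after the values were seen and carry no test.

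**Figure D2:**
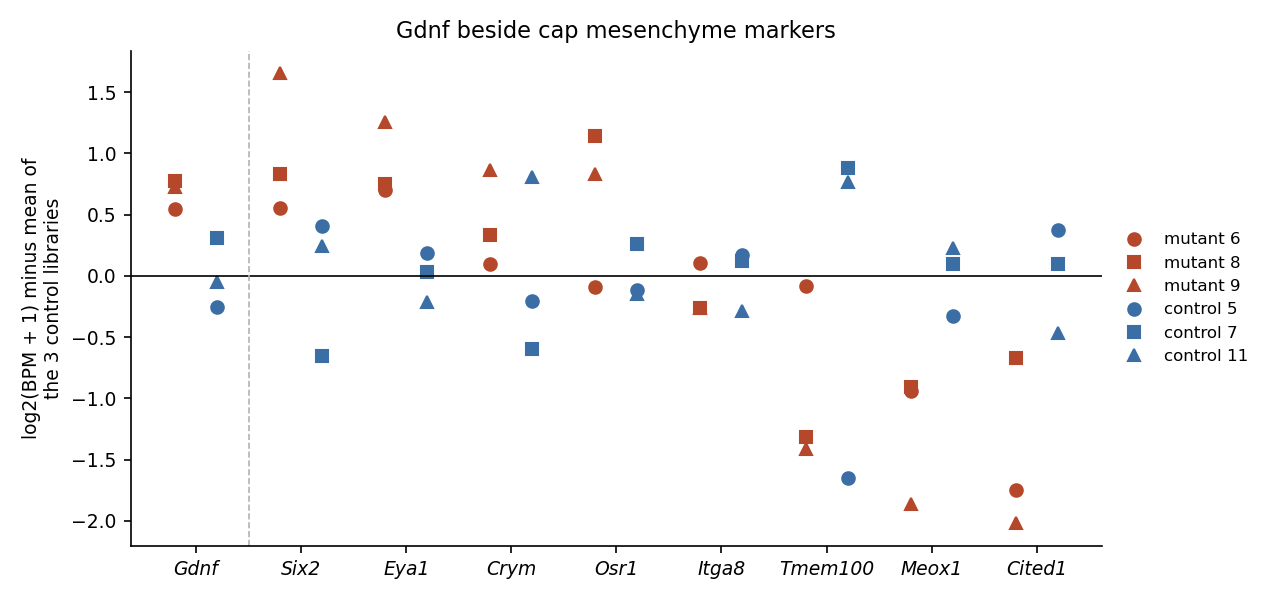
Log2(BPM + 1) minus the mean of the 3 control libraries (vertical axis) for Gdnf, left of the dashed line, and 8 cap mesenchyme markers, with a point for each of 3 mutant and 3 control libraries. Mutant points lie above all control points for Gdnf, Six2 and Eya1 and below them for Meox1 and Cited1.

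Genes listed as needed for Gdnf expression, with Eya1 and Six2 among them, did not share one direction. Of 13 listed activators 11 were tested, with 6 above 0 and 5 below, a median log2 fold change of 0.07 and 0 called. After Eya1 and Six2 the smallest p belonged to Pax2, a paired-box factor of bud and cap, at -0.83 (SE 0.49, limma adjusted p 0.887). The integrin ligand nephronectin (Npnt) and its receptor subunit Itga8, which uphold Gdnf in the mesenchyme, had log2 fold changes of -0.09 and -0.14. Of 6 genes that limit the Gdnf domain or modify GDNF action, 5 were tested and 4 lay above 0, with a median of 0.24. Slit2, a guidance ligand, stood at 161, 189 and 173 BPM in mutants 6, 8 and 9, against 172, 115 and 105 BPM in controls 5, 7 and 11, and its receptor Robo2 had a log2 fold change of 0.24, or 0.08 without control 11. Bmp4, which opposes GDNF action outside the tips, had a log2 fold change of -0.49, or -0.06 without mutant 6 and -0.90 without mutant 8. Of the 5, 0 had an unadjusted p below 0.05. The BMP antagonist Grem1 read at most 1.81 BPM and was not tested.

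Gfra1, the GPI-anchored co-receptor that presents GDNF to RET and is made by both the bud and the mesenchyme, lies on chromosome 19 from 58235604 to 58455909 (minus strand). Its level was 149, 131 and 227 BPM in mutants 6, 8 and 9, against 112, 99.6 and 139 BPM in controls 5, 7 and 11. Mutant 9 was the highest, and mutant 8 lay below control 11, so the groups overlapped. The mean was 169 ± 50.7 BPM in mutant and 117 ± 20.4 BPM in control kidneys (SD, n = 3 each). In limma its log2 fold change was 0.50 with an SE of 0.23 and a 95% interval of 0.03 to 0.98, a limma adjusted p of 0.863 and an unadjusted p of 0.0391. The exact two-sided permutation p was 0.2, and the authors' deposited table gives an unadjusted p of 0.173 for a ratio of 1.45. The log2 fold change was 0.27 without mutant 9, the library with muscle transcripts at 296 BPM, and the part of those transcripts in the value was not tested. With control 11 and mutant 6 removed together, which was decided once the data had been seen, it was 0.70. The unadjusted limma p was 0.324 without mutant 9, 0.128 without control 7, 0.085 without control 5, 0.0045 without control 11 and 0.137 without the trend. An annotated antisense gene, Gm16277, overlaps Gfra1 exons, and strand use in the counting is not stated, so reads from the 2 cannot be told apart.

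Ret, the receptor tyrosine kinase largely confined within the developing kidney to the ureteric tips, lies on chromosome 6 from 118151745 to 118197718 (minus strand). Its level was 31.0, 37.9 and 22.8 BPM in mutants 6, 8 and 9, against 20.6, 16.3 and 33.2 BPM in controls 5, 7 and 11. Control 11 stood above mutants 6 and 9, so the groups overlapped. The mean was 30.6 ± 7.60 BPM in mutant and 23.4 ± 8.75 BPM in control kidneys (SD, n = 3 each). Its log2 fold change of 0.40 had an SE of 0.38 and a 95% interval of -0.36 to 1.17, with a limma adjusted p of 0.921 and an exact two-sided permutation p of 0.3. It moved from 0.19 without control 7 to 0.68 without control 11. The interval includes 0, and a difference in Ret was not detectable in these 6 libraries.

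Peripheral neurons and glia can also express Ret and Gfra1, and their defining markers were near 0. Sox10 read 0 in all 3 mutant kidneys and at most 0.677 BPM in control kidneys, and Th was listed at 0 throughout. The 10 neural markers summed to 3.59 to 15.9 BPM in mutant and 4.62 to 9.29 BPM in control kidneys.

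Relative to the ureteric trunk markers, Ret showed no separation by genotype. The log2 level of Ret minus their mean log2 level was -0.97, -0.73 and -1.62 in mutants 6, 8 and 9, and -1.29, -1.72 and -1.0 in controls 5, 7 and 11. Of the 11 trunk markers, 1 had an unadjusted p below 0.05 and 2 had no overlap between the groups. These were Calb1 and Hsd11b2. Calb1, a calcium-binding protein of bud and distal tubule, had a log2 fold change of 0.91 (SE 0.24, limma adjusted p 0.336), and Hsd11b2, the cortisol-inactivating enzyme of the collecting duct, one of 0.80. Scnn1b, a subunit of the epithelial sodium channel, and the keratin gene Krt18 lay below 0, at -0.24 and -0.20. Gata3, a transcription factor that maintains Ret in the bud, stood at 71.0, 56.2 and 81.3 BPM in mutants 6, 8 and 9, against 44.8, 69.3 and 56.7 BPM in controls 5, 7 and 11. Of 10 regulators of Ret, 6 lay above 0 and 4 below, with a median log2 fold change of 0.08, and 0 were called. The retinoic acid receptor Rarb had the smallest p, at 0.59 (SE 0.27, unadjusted limma p 0.0389, adjusted p 0.863), and Pax8, at -0.23, was the one regulator without overlap, lower in mutant kidneys.

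Wnt11, the tip-secreted ligand that feeds back on the cap, lies on chromosome 7 from 98835112 to 98855195 (plus strand). Its level was 94.3, 60.3 and 59.1 BPM in mutants 6, 8 and 9, against 60.4, 34.6 and 34.9 BPM in controls 5, 7 and 11. Mutant 6 was the highest and control 5 lay just above mutants 8 and 9, so the groups overlapped narrowly. The mean was 71.2 ± 19.99 BPM in mutant and 43.3 ± 14.8 BPM in control kidneys (SD, n = 3 each), a ratio of 1.64. The log2 fold change of 0.72 (SE 0.30, 95% interval 0.11 to 1.33) was the highest of the 8, with a limma adjusted p of 0.854 and an unadjusted p of 0.0213. The exact two-sided permutation p was 0.3, and the authors' deposited table gives an unadjusted p of 0.124 for the same ratio, 1.64. The log2 fold change was 0.98 without control 5, 0.50 without mutant 6 and 0.38 with control 11 and mutant 6 removed together. Its unadjusted limma p was 0.147 without mutant 6, 0.0803 without control 7 and 0.0507 without control 11. A processed pseudogene, Gm8398, is annotated on the opposite strand over a Wnt11 exon, so reads there are uncertain.

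**Figure D3:**
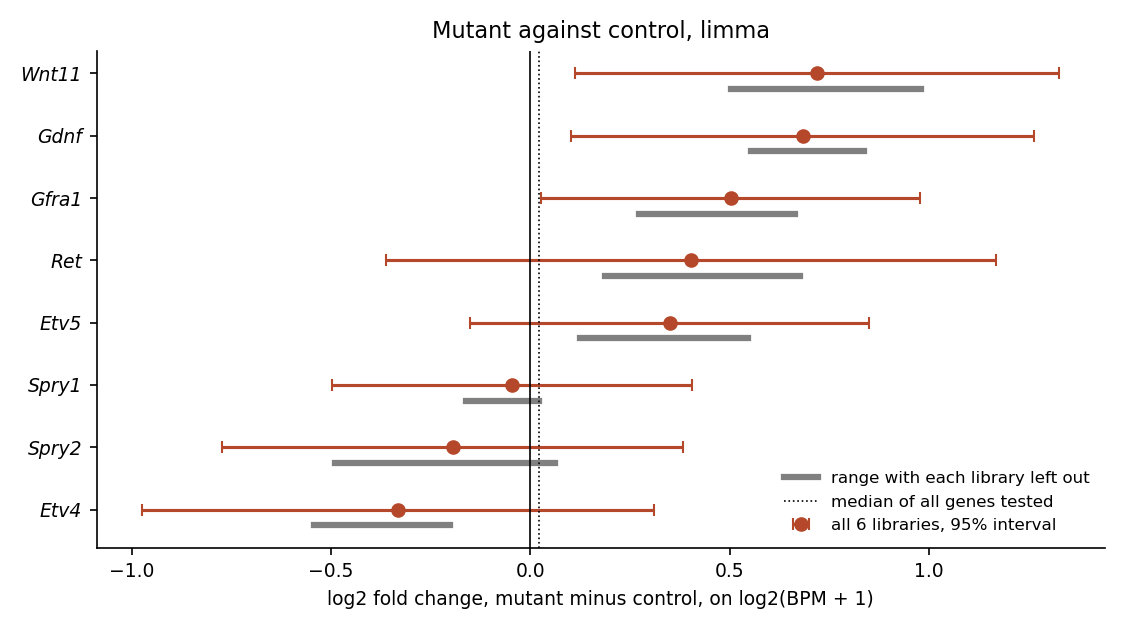
Log2 fold change of mutant minus control (horizontal axis) for the 8 genes, with the limma 95% interval, and in grey the range with each library left out in turn. The dotted line is the median of all genes tested, 0.02; intervals of Wnt11, Gdnf and Gfra1 lie above 0 before adjustment over all genes.

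Etv4 and Etv5, paralogous ETS factors of the PEA3 group that act together downstream of RET, had fold changes of opposite sign. Etv5 (chromosome 16, 22381309 to 22439719, minus strand) stood at 164, 98.5 and 136 BPM in mutants 6, 8 and 9, against 74.0, 121 and 118 BPM in controls 5, 7 and 11. Mutant 8 lay below controls 7 and 11. Etv4 (chromosome 11, 101769742 to 101785371, minus strand) stood at 41.4, 30.5 and 36.7 BPM in mutants 6, 8 and 9, against 51.0, 33.6 and 54.6 BPM in controls 5, 7 and 11. Control 7 lay among the mutant values. Etv5 averaged 133 ± 32.7 BPM in mutant and 104 ± 26.1 BPM in control kidneys, and Etv4 36.2 ± 5.49 BPM in mutant and 46.4 ± 11.2 BPM in control kidneys (SD, n = 3 each). Etv5 had a log2 fold change of 0.35 (SE 0.25, 95% interval -0.15 to 0.85, limma adjusted p 0.896). Etv4 had one of -0.33 (SE 0.32, 95% interval -0.97 to 0.31, limma adjusted p 0.922). The Etv5 value was 0.12 without control 5 and 0.55 without mutant 8, and the Etv4 value -0.54 without control 7 and -0.20 without control 11.

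Within a library, Etv5 exceeded Etv4 by 1.96, 1.66 and 1.86 log2 units in mutants 6, 8 and 9, and by 0.53, 1.81 and 1.09 in controls 5, 7 and 11. The groups overlapped through control 7. The third PEA3 factor, Etv1, read 6.17 to 13.9 BPM in mutant and 4.98 to 9.02 BPM in control kidneys, with a log2 fold change of 0.44 (SE 0.55).

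Spry1 and Spry2, the feedback inhibitors, had values on either side of each other in the 2 groups. Spry1 (chromosome 3, 37639947 to 37644598, plus strand) stood at 132, 120.3 and 143 BPM in mutants 6, 8 and 9, against 145, 149 and 115 BPM in controls 5, 7 and 11. Its spread in both groups was narrow, and its log2 fold change of -0.05 had a 95% interval of -0.50 to 0.40 (SE 0.22, limma adjusted p 0.987). Spry2 (chromosome 14, 105891947 to 105896819, minus strand) stood at 41.3, 89.9 and 56.0 BPM in mutants 6, 8 and 9, against 60.7, 72.6 and 71.2 BPM in controls 5, 7 and 11. Its lowest and highest values were both in mutant kidneys, with all controls between mutants 9 and 8. Its log2 fold change was -0.19 (SE 0.29, 95% interval -0.77 to 0.38, limma adjusted p 0.95), and it was -0.49 without mutant 8 and 0.06 without mutant 6. An opposite-strand gene model, Gm42922, overlaps Spry1 exons.

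Other genes under RET or in the ERK feedback loop gave few differences. Of 6 further genes reported downstream of RET or of Etv4 and Etv5, 5 lay above 0, with a median log2 fold change of 0.14 and 0 called. The transcription factor Myb was at 0.51 and the receptor kinase Met at -0.14 on the log2 scale. Of 9 further ERK feedback genes tested, 6 lay above 0 and 3 below, with a median of 0.12, and 0 had an unadjusted p below 0.05. Spred2 was the only one of the 9 without overlap, at 41.5, 57.7 and 44.8 BPM in mutants 6, 8 and 9, against 35.1, 37.1 and 35.7 BPM in controls 5, 7 and 11. Spry4 was at -0.51, Il17rd at -0.36 and Spred1 at 0.37 on the log2 scale, and Dusp6, a phosphatase of ERK, at 0.00. Dusp6 belongs to both lists and was counted in each, on the side above 0.

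**Figure D4:**
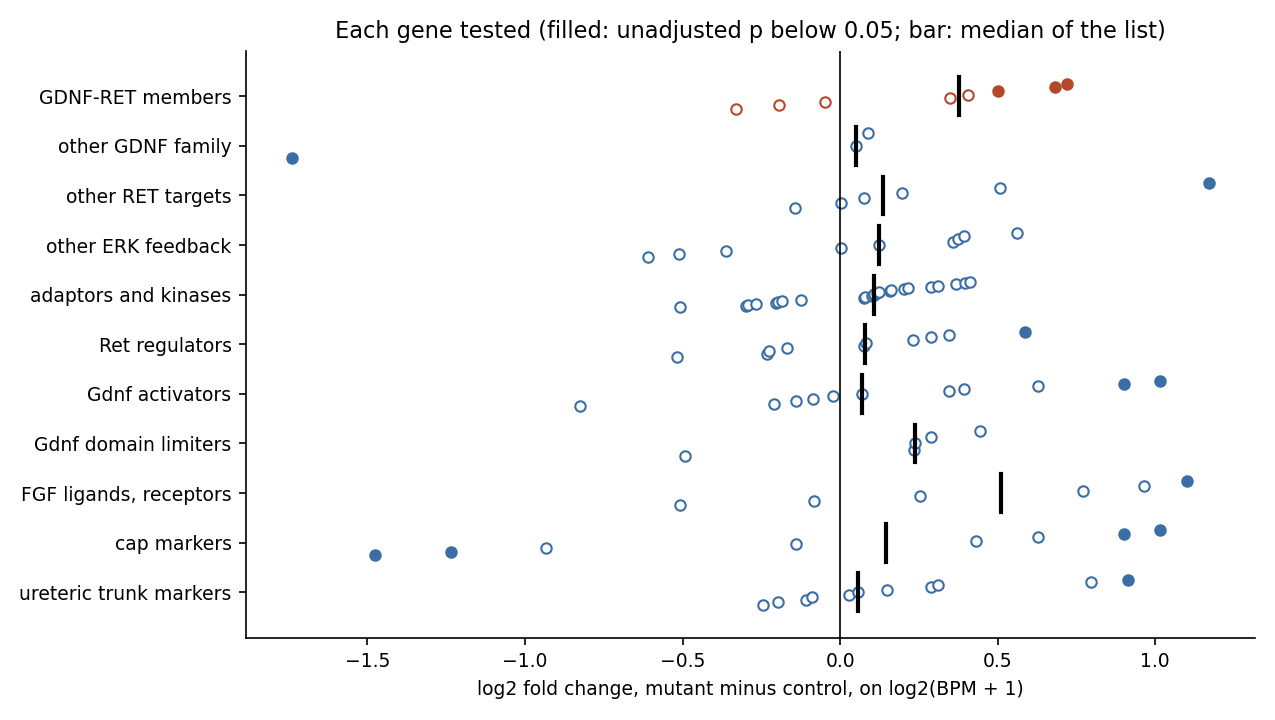
Log2 fold change of mutant minus control (horizontal axis) for each gene tested in the 8 members, in red, and in 10 related lists, in blue, with a bar at each list's median and filled points for an unadjusted limma p below 0.05. The 3 filled member points are Gfra1, Gdnf and Wnt11; cap markers have filled points on both sides of 0.

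The adaptors and kinases that RET shares with other receptors lay close to the all-gene median. Of 26 listed genes 24 were tested, with 16 above 0 and 8 below, a median log2 fold change of 0.11, 0 called and 0 with an unadjusted p below 0.05. Dok4, an adaptor that binds RET, was lower in every mutant kidney (log2 fold change -0.51). Grb10, an adaptor of receptor tyrosine kinases, had a log2 fold change of 0.29.

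Of the other GDNF-family ligands and receptors, few were detected. Neurturin (Nrtn), artemin (Artn), persephin (Pspn) and Gfra3 were below the filter, and Pspn was listed at 0 in all 6 libraries. Gfra2, the neurturin co-receptor, had a log2 fold change of -1.74 (unadjusted limma p 0.0351, adjusted p 0.863), with 0.57 to 1.38 BPM in mutant kidneys, against 20.2, 0.958 and 5.56 BPM in controls 5, 7 and 11. Without control 5, control 11 or mutant 8, or at a minimum of 5 BPM, it did not pass the filter. Gfra4 was at 0.05 and Ncam1, an adhesion molecule that also binds GDNF, at 0.09 on the log2 scale. Among FGF ligands and receptors, which act on the bud and cap beside GDNF, 6 of 7 were tested and the median was 0.51. Fgf10 is a ligand that can support branching when RET signalling is low. It read 10.01, 16.7 and 20.8 BPM in mutants 6, 8 and 9, against 8.47, 2.88 and 10.8 BPM in controls 5, 7 and 11. Its log2 fold change was 1.10 (SE 0.54, unadjusted limma p 0.0498, adjusted p 0.882), and mutant 6 lay below control 11. It was 0.62 without control 7 and 1.42 without control 11. Its receptor Fgfr2 had no overlap, at 379, 414 and 344 BPM in mutants 6, 8 and 9 against 334, 329 and 291 BPM in controls 5, 7 and 11, and Fgf8 had a log2 fold change of 0.96, or 0.53 without control 5.

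Levels can be set between genes only per length, and the length used was the union of annotated exons in GENCODE M21, since the features counted by the authors are not stated. On that scale of BPM per kilobase, Spry1 was the highest of the 8 at 45.3 ± 3.83 in mutant and 47.0 ± 6.35 in control kidneys, and Ret the lowest at 4.52 ± 1.12 in mutant and 3.45 ± 1.29 in control kidneys (SD, n = 3 each). In mutant kidneys the order was Spry1, Etv5, Gfra1, Spry2, Gdnf, Wnt11, Etv4 and Ret, and in control kidneys Spry1, Spry2, Etv5, Gfra1, Etv4, Gdnf, Wnt11 and Ret. Of neighbours in that order, Etv5 overlapped with Gfra1, Gfra1 with Spry2 and Gdnf with Wnt11 in mutant kidneys. In control kidneys Spry2 overlapped with Etv5, Etv5 with Gfra1, Etv4 with Gdnf and Gdnf with Wnt11. Gdnf and Wnt11 stood at 18.2 ± 1.54 and 17.2 ± 4.83 BPM per kilobase in mutant and 11.4 ± 2.34 and 10.5 ± 3.58 in control kidneys, while Etv4 stood at 11.7 ± 1.77 in mutant and 15.0 ± 3.61 in control kidneys. The means of Gdnf and Wnt11 thus lay above that of Etv4 in mutant kidneys and below it in control kidneys. In control kidneys the values of Gdnf and of Wnt11 overlapped with those of Etv4.

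The 8 genes did not vary as a block over the 6 libraries. Pearson's r on the log2 scale, a description over 6 libraries that share 2 genotypes, was 0.53 between Gdnf and Gfra1, 0.39 between Gdnf and Wnt11 and 0.30 between Gdnf and Ret. It was -0.83 between Gdnf and Etv4 and -0.92 between Ret and Spry1. Mutant 8 held the highest Gdnf, Ret and Spry2 and the lowest Etv4, mutant 6 the highest Wnt11 and Etv5 and the lowest Spry2, and mutant 9 the highest Gfra1. Control 7 held the lowest Ret, Gfra1 and Wnt11. Among 10365 genes with a mean of at least 10 BPM, the patterns most like that of Gdnf were those of Prc1 (r = 0.99), a protein of the mitotic spindle midzone, Akap10 (0.99), a kinase anchoring protein, and Thada (0.99). Those most like Ret were Mpnd (0.99), Dym (0.98) and Slc22a17 (0.98), and over so many genes 6 libraries give high values readily.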

How the data were processed

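Per the labels' protocols, E17 kidney RNA was depleted of ribosomal RNA and sequenced as Ion Total RNA-seq libraries. The submitters' processing notes name mm10 and bedtools without version or role, while the aligner and annotation are not stated. The signal deposited by the authors is summed base coverage per gene plus 1, times a factor per library; this was read from the values, since each divided by its column's smallest was whole for 100% of values (tolerance 0.001). The deposited ratio and p-value are the authors' own, and the p is unadjusted. The floor was removed and each library's coverage was scaled to 1000000 (BPM). The filter asked for 1 BPM or more in 3 or more libraries. Log2(BPM + 1) was tested, mutant against control, with limma 3.58.1 (R 4.3.3, trend and robust options, two-sided, Benjamini-Hochberg over 13977 genes at 0.05). Fold changes on that scale understate those of low genes. The fit was tested on simulated data. No count test was used, since covered bases are not reads, and no interval for counting error can be given. Genes named are the 8 members, Mta2, up to 3 genes of each related list with the smallest p, the 3 patterns most like Gdnf and Ret, and context genes; others with no overlap between groups, and Npnt, Itga8, Dusp6, Scnn1b, Krt18, Col1a1, Meis1, Col3a1, Sox10 and Th, were named after their values were seen, and some list genes that the rule names are not reported here. The members and lists were chosen with earlier results of these data known. Alternatives covered normalization, filter, pseudocount, test settings and each library left out.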

Additional observations from a re-analysis of the deposited data

How the results depend on the processing

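Under 16 alternatives 0 members passed an adjusted p of 0.05, and 6 of the 8 members (all but Spry1 and Spry2) kept their direction in every one. Over all genes limma called 1 gene with quantile normalization, 1 without the trend, 4 with array weights, 0 to 8 with each library left out, and 22 with control 11 and mutant 6 removed together, which was decided once the data had been seen. Members without overlap numbered 1 under the other settings, 1 to 4 with each library left out, when 20.1% to 22.8% of all genes had none against 11.2% with all libraries, and 4 with control 11 and mutant 6 removed (Gdnf, Gfra1, Ret and Spry1), when 35.4% of all genes had none. With a library left out, Spry1 ranged from -0.162 to 0.0225, with values above 0 without mutant 8 (0.0159), control 5 (1e-04) or control 7 (0.0225), and Spry2 ranged from -0.49 to 0.0614. With control 11 and mutant 6 removed Spry2 was at 0.0946. Of the list genes followed across the alternatives, those whose sign turned with a library left out were Dusp6 (-0.0677 to 0.128), Ncam1 (-0.0296 to 0.154), Gfra4 (-0.24 to 0.47), Met (-0.31 to 0.0239), Foxd1 (-0.45 to 0.0591), Stmn2 (-0.96 to 0.51) and Alas2 (-0.65 to 0.26); with control 11 and mutant 6 removed, Ncam1 was at -0.0816, Alas2 at 0.33 and Dusp6 at -0.12. Dusp6 was also at -0.027 with quantile normalization, -0.0306 with upper quartile scaling, -0.0167 with totals without the 100 highest genes and -0.0408 with array weights. The cause was not tested. No paired analysis was possible because mutant and control libraries share no label number. Read depth is unknown, so what depth limits cannot be stated beyond the limma intervals.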

Other observations

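Stromal and blood markers, which lie outside the GDNF-RET axis, were read as a check on tissue makeup. Of 6 stroma markers 3 lay above 0 and 3 below, with a median log2 fold change of 0.02 and 0 called. Pdgfra, a receptor of interstitial fibroblasts, and Fat4, a giant cadherin of the stroma, were higher in every mutant kidney, with log2 fold changes of 0.60 and 0.73 (limma adjusted p 0.73 and 0.336), or 0.38 and 0.48 without control 11. Col1a1 was at 0.05, Meis1 at -0.02, Col3a1 at -0.03 and the stroma progenitor factor Foxd1 at -0.19 on the log2 scale. The alpha-globin gene Hba-a1 stood at 691, 1303 and 1059.96 BPM in mutants 6, 8 and 9, against 862, 687 and 762 BPM in controls 5, 7 and 11. The 5 adrenal cortex markers summed to at most 1.30 BPM in mutant and 3.84 BPM in control kidneys.

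Further contrasts within libraries overlapped between the groups. Wnt11 exceeded Ret by 1.57, 0.65 and 1.34 log2 units in mutants 6, 8 and 9, and by 1.51, 1.04 and 0.07 in controls 5, 7 and 11. Gdnf exceeded Ret by 0.94, 0.89 and 1.56 in mutants 6, 8 and 9, and by 0.71, 1.59 and 0.25 in controls 5, 7 and 11.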
